A study of Mus musculus with 6 samples.

Results

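The genes of the synaptic vesicle and of the SNARE membrane fusion machinery were followed in the thalamus of irradiated mice. They were chosen by name alone, from families of fusion proteins, their regulators and vesicle proteins: synaptotagmins, syntaxins, VAMPs, SNAP proteins, complexins, syntaxin-binding proteins, RIMs, RAB3 proteins, synapsins, SV2 proteins and synaptogyrins. Of the 21899 genes in the table, 72 had such a name, and 67 of these had at least 10 counts summed over the 6 mice. All 67 passed the filter on low counts and were tested among 14956 genes. The other 5 names, Syt8, Stx19, Cplx4, Syngr4 and Vamp9, had 0 to 3 counts in each mouse and were not tested.

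Bulk RNA sequencing was done on male wild-type C57BL/6J mice, 8 to 10 weeks old when bought. The thalamus received 50 Gy in every mouse, and 2 weeks later 2 µL of virus was injected into it. In the RC group (n = 3) the virus was AAV9 GFAP104::tdTomato, which carries only a red fluorescent protein. In the RN group (n = 3) it was AAV9 GFAP104::mND1-tdTomato, which also carries mouse NeuroD1, a transcription factor that drives neuronal differentiation. Both viruses use a GFAP promoter, which is active mainly in astrocytes, and tissue was removed 6 weeks after the radiation. The removed piece lay beneath the hippocampus and held every cell type there. In such bulk tissue, fewer cells of a type and less RNA per cell cannot be told apart. Mice with neither radiation nor virus were not analysed here, so the comparison shows RN against RC and not against healthy tissue.

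At a nerve terminal, vesicles filled with transmitter are clustered by synapsins and docked at the membrane by RIM and RAB3 proteins. Fusion is driven by a bundle of SNARE proteins, VAMP on the vesicle and syntaxin with SNAP25 on the plasma membrane. Syntaxin-binding proteins guide its assembly, complexins clamp it, and synaptotagmins release the clamp when calcium enters. Thalamic relay neurons fire fast and reliably, and their terminals are known for VAMP1 and synaptotagmin-2 beside the forebrain forms VAMP2 and synaptotagmin-1. Other SNAREs of the same families serve endosomes, the Golgi apparatus and secretion in cells that are not neurons.

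The start regions of 4 members are shown because NeuroD1 is known to bind E-box sequences. The 4 were picked from 7 members with a start region that were higher in every RN mouse than in any RC mouse. Values are given further on. Each run is the 250 bases before the first start listed for the gene in RefSeq on build GRCm38.p6. It is written 5′ to 3′ on the strand of the gene. Other starts were not searched. Capitals mark CAGCTG, an E-box that reads the same on both strands.
Syt6 (chr3:103574995-103575244, plus strand): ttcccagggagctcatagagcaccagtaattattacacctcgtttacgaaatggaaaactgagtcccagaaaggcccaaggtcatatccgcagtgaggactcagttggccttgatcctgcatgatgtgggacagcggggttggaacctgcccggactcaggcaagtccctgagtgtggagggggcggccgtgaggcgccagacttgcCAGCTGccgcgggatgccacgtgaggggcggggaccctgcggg
Syt16 (chr12:73997527-73997776, plus strand): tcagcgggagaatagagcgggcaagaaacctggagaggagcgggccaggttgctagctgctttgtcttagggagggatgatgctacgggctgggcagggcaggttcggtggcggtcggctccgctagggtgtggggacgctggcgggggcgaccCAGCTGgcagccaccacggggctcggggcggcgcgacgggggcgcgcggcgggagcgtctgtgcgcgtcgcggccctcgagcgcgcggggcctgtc
Sv2c (chr13:96132578-96132827, minus strand): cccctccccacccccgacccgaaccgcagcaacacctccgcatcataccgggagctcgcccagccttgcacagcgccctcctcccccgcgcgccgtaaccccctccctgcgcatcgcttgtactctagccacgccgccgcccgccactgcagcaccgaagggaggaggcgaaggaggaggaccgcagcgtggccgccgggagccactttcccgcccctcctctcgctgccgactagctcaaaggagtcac
Rab3b (chr4:108878820-108879069, plus strand): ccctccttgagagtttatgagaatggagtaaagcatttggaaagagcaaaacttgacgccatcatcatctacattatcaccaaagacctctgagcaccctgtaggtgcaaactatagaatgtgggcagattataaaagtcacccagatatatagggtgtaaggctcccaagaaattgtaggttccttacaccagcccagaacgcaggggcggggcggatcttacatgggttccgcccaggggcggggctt
The CAGCTG of Syt6 begins 43 bases before the start and that of Syt16 96 bases before it. The windows of Sv2c and Rab3b hold neither CAGCTG nor CAGATG, the other E-box searched. Other forms of E-box, such as CACGTG in the Syt6 window, were not searched or marked. Of the 67 members, 52 had a start region in the RefSeq table. CAGCTG was found in 13 of these 52 (25%) and in 12.8% of the 27025 genes of the table. It occurred in 3 of the 7 members with a start region whose RN mice all lay above RC: Syt6, Syt16 and Sv2a, whose region is not shown. It also occurred in 10 of the others, Cplx1, Cplx2, Stx1a and Rab3c among them. CAGATG or its complement CATCTG was found in 4 of the 52 (7.69%) against 14.5% of all genes. It occurred in 0 of the 7 members whose RN mice all lay above RC. The cyclic AMP response element TGACGTCA was found in the regions of Stxbp3 and Syn1 (3.85%, against 1.62% of all genes). These matches describe letters in a window and show no binding.

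Each library held between 16561663 and 18657015 counts on genes, and the members took between 1.22% and 1.40% of them. Neurod1, the gene of the RN virus, stood at 4.71, 5.44 and 5.16 CPM in the RC mice against 66.8, 91.5 and 50.9 in the RN mice. Its log2 fold change was 3.77 (adjusted p = 0.00178 in edgeR's quasi-likelihood test), and its counts can include viral transcripts. The tissue label was checked against markers. The 10 thalamic neuron markers were detected in every mouse, with a summed level of 867 to 1797 CPM (counts scaled to a common library size, with TMM factors) in RC and 640.0 to 1161 CPM in RN. Of these 10, 9 had lower means in RN, 1 of them at an unadjusted p under 0.05, and their median log2 fold change was -0.54. Genes of neighbouring structures were also present and unequal. The 10 choroid plexus markers summed to 317 to 8391 CPM in RC and 59.0 to 138 CPM in RN, and all 10 had an unadjusted p under 0.05. The 12 hypothalamic neuron markers summed to 37.2 to 227 CPM in RC and 312 to 438 CPM in RN. The 5 pituitary hormone genes summed to 1382 and 639 CPM in RN replicates 1 and 2, to 81.2 and 90.2 CPM in RC replicates 1 and 2, and to 1.37 and 1.96 CPM in replicate 3 of RC and RN. All 8 astrocyte markers had lower means in RN, 5 of them at an unadjusted p under 0.05. These differences are given again beside some of the members.

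The synaptic vesicle and SNARE genes as a group were nearly level between RN and RC. Their summed level was 12777, 12432 and 14062 CPM in RC replicates 1, 2 and 3 and 13774, 13365 and 13419 CPM in RN replicates 1, 2 and 3. The groups overlapped, with a mean of 13090.3 ± 859 CPM for RC against 13519 ± 222 CPM for RN (SD, n = 3 each), and RC varied more than RN. The 17 pan-neuronal markers, genes of neurons in general, summed to 7750.2, 7608 and 9037 CPM in the RC mice against 8715, 8781 and 8752 in the RN mice, again with overlap. Divided by that sum, the members stood at 1.65, 1.63 and 1.56 in RC and 1.58, 1.52 and 1.53 in RN, which overlapped as well.

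No member passed both an adjusted p of 0.05 and 2-fold in edgeR's quasi-likelihood test, and none passed the adjusted p alone, where 0.0735% of all tested genes (11 genes) passed either rule. At an unadjusted p under 0.05, 7 members (10.4%) were higher in RN, against 5.44% of all tested genes, and 4 (5.97%) were lower, against 6.33%. The higher ones were Syt6, Syt5, Sv2c, Stxbp5, Rab3b, Syt16 and Vamp4, and the lower ones Stxbp3, Vamp8, Cplx3 and Stxbp4. These counts moved with single mice, to 3 higher and 2 lower without RN replicate 3 and to 4 higher and 8 lower without RC replicate 2, and the higher count was also 4 without RC replicate 3 or RN replicate 1. In 11 members (16.4%) every RN mouse lay above every RC mouse, against 8.18% of all tested genes, and in 6 (8.96%) every RN mouse lay below, against 8.12%. DESeq2's Wald test gave an adjusted p under 0.05 for 3 members, Syt6, Sv2c and Syt5, all higher in RN, where 1.51% of all genes were higher and 1.70% lower. With the 2-fold threshold it called 0 members, against 1.20% of all genes. The shares of lower members were thus near those of all genes, and the shares of higher members lay above them but rested on few genes.

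Sizes were small. The median log2 fold change of the 67 members was 0.015, beside 0.0037 for all tested genes, with 37 members above 0 and 30 below. The absolute log2 fold change was under 0.25 in 51 members (76.1%), as in 71.4% of all tested genes, and it reached 2-fold in 0 members against 3.18% of all genes. Its median was 0.147 for the members and 0.134 for all tested genes, which were not matched for level. The 95% interval of the fold change lay within 2-fold for 63 of the 67 members (94.0%), against 81.2% of all tested genes. It lay within 1.5-fold for 45 members (67.2%), a share not taken over all genes. The median standard error was 0.116 for the members and 0.149 for all tested genes. The members that reached furthest were Sv2c, at 0.81, and Cplx3, at -0.97. The plot of fold changes shows wide intervals in genes of few counts such as Stx11 and Cplx3, and also in Cplx2 and Sv2c, which had many counts but differed between mice of a group.

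**Figure D1:**
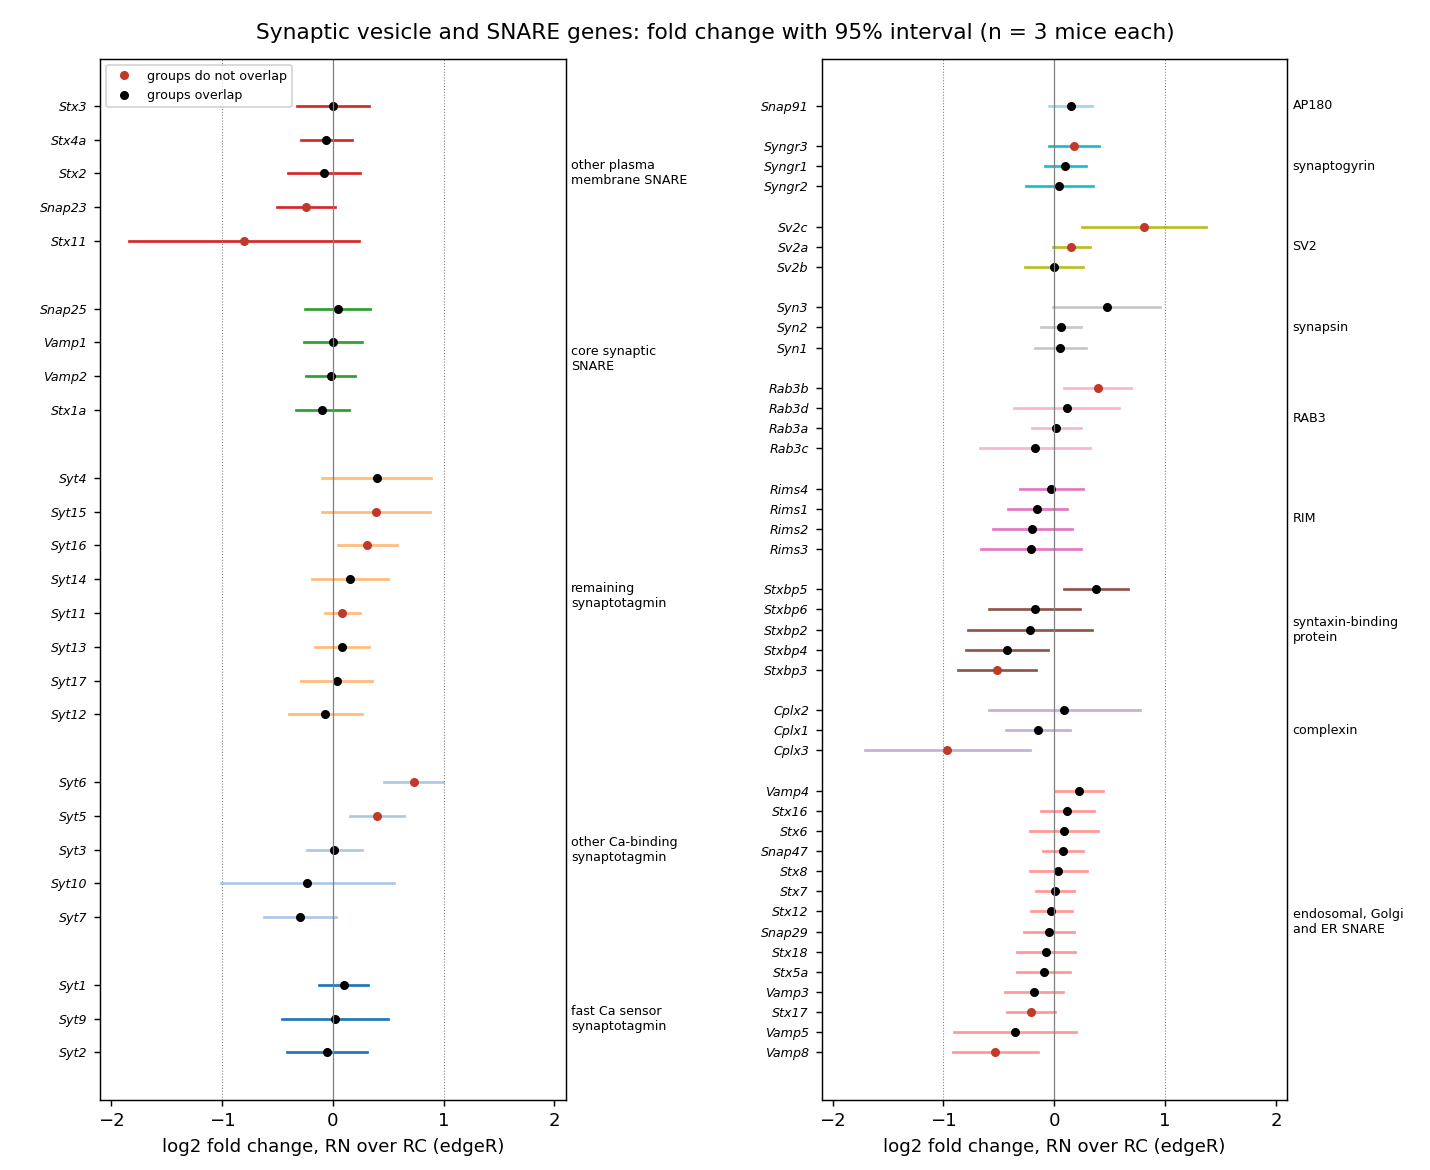
Log2 fold change of RN over RC for 65 of the 67 tested members, by role, with the 95% interval from edgeR (n = 3 mice each). Dots are red where the values of the groups do not overlap, dotted lines mark 2-fold, and no estimate lies beyond them.

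The core SNAREs of synaptic vesicle fusion differed little between the groups. Snap25, whose protein anchors the bundle at the plasma membrane, stood at 987, 884 and 1223 CPM in the RC mice against 1169.8, 1023 and 995 in the RN mice. Vamp2, the main VAMP of forebrain vesicles, stood at 733, 795 and 913 CPM in the RC mice against 837, 773 and 803 in the RN mice. Vamp1, its relative in fast-firing neurons, stood at 328, 375 and 397 CPM in the RC mice against 349.8, 419 and 331 in the RN mice. In these 3 genes the groups overlapped, and the log2 fold changes were 0.043 (95% interval -0.25 to 0.34), -0.018 (-0.24 to 0.20) and -0.00093 (-0.26 to 0.26). A change of 1.5-fold in either direction lies outside each of these intervals.

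Stx1a, a syntaxin of the synaptic plasma membrane, stood at 37.2, 37.2 and 42.0 CPM in the RC mice against 38.2, 38.2 and 32.8 in the RN mice. RN replicates 1 and 2 lay among the RC mice and RN replicate 3 below them, and the log2 fold change was -0.094 (95% interval -0.34 to 0.15, adjusted p = 0.817 in edgeR).

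**Figure D2:**
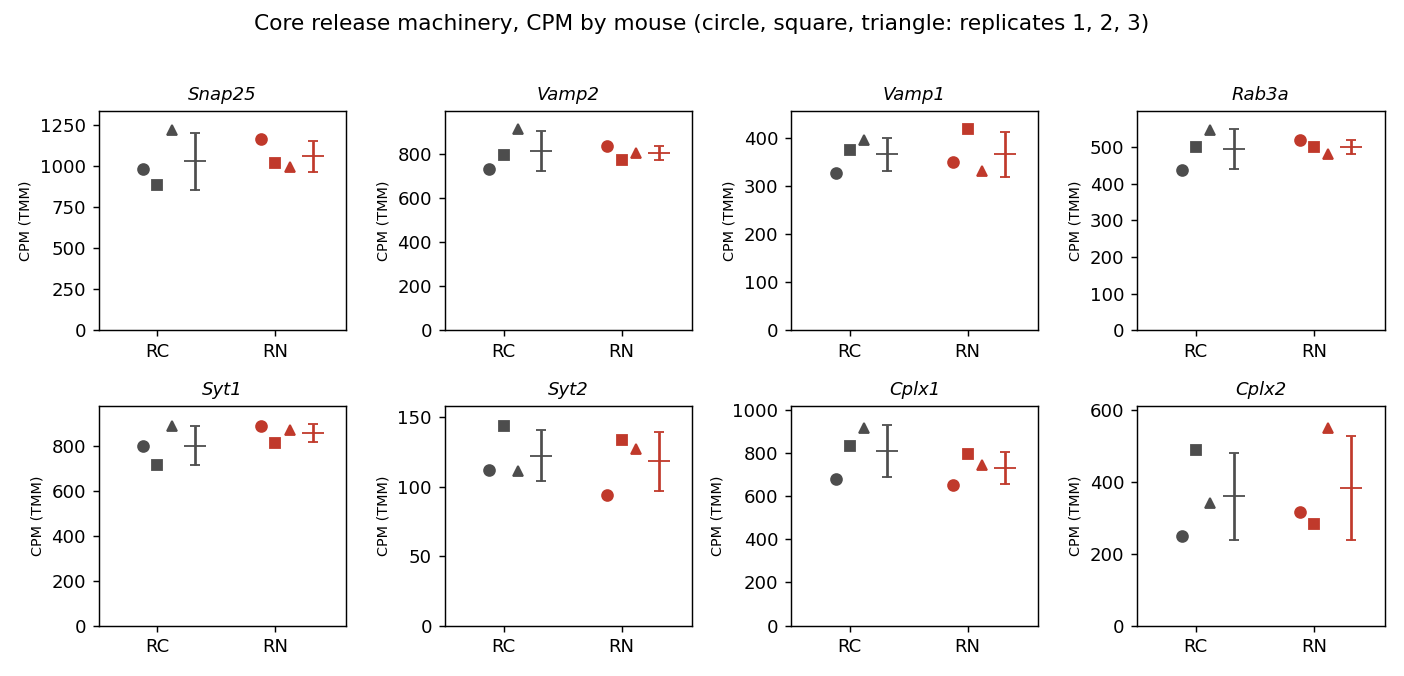
CPM of 8 genes of the core release machinery in each mouse, each panel from 0, with the group mean and SD beside the points (n = 3 mice each). The groups overlap in all 8 genes.

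Of the 5 SNAREs of the plasma membrane outside the synapse, none had an unadjusted p under 0.05 in edgeR, and the groups overlapped in 3. Snap23, the form of SNAP25 found in glia and other cells that are not neurons, stood at 20.3, 20.5 and 21.4 CPM in the RC mice against 16.2, 18.0 and 18.4 in the RN mice. All RN mice lay below RC, and the log2 fold change was -0.24 (95% interval -0.51 to 0.022, unadjusted p = 0.0675 and adjusted p = 0.473 in edgeR). The 8 astrocyte markers summed to 5941, 7629.7 and 6405 CPM in the RC mice against 4088, 5259 and 5236 in the RN mice, also without overlap, and their part in this difference was not tested. Stx11, a syntaxin of immune cells, had few reads, at 45, 32 and 31 counts in the RC mice against 8, 27 and 29 in the RN mice. Its groups did not overlap, but its interval of -1.84 to 0.24 was wide, and leaving out a mouse at a time gave log2 fold changes of -1.09 to -0.43. Stx3, a syntaxin of ribbon synapses and epithelia, stood at 28.8, 22.8 and 21.1 CPM in the RC mice against 23.5, 26.2 and 23.0 in the RN mice, with the groups overlapping and nearly the same mean in both. Stx2 and Stx4a also overlapped, at log2 fold changes of -0.08 and -0.059.

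Of the 14 SNAREs of endosomes, the Golgi apparatus and the endoplasmic reticulum, 1 was higher and 1 lower at an unadjusted p under 0.05. Vamp4, which serves endosome to Golgi traffic and bulk vesicle retrieval, stood at 64.2, 59.5 and 57.0 CPM in the RC mice against 75.4, 64.2 and 70.9 in the RN mice. RC replicate 1 and RN replicate 2 were all but equal in it, and the log2 fold change was 0.22 (unadjusted p = 0.0481, adjusted p = 0.419 in edgeR). Vamp8, a SNARE of late endosomes and of secretion in epithelial cells, stood at 25.6, 35.1 and 23.4 CPM in the RC mice against 17.5, 20.6 and 20.1 in the RN mice. It was highest in RC replicate 2 and lower in all RN mice, and the fitted log2 fold change was -0.53 (standard error of 0.168 and adjusted p = 0.246 in edgeR). The choroid plexus marker sum was 2746, 8391 and 317 CPM in the RC mice against 59.0, 97.4 and 138 in the RN mice. When that marker score entered the fit, the log2 fold change of Vamp8 was -0.10 (unadjusted p = 0.626 in edgeR). The score was lower in every RN mouse (-1.74, -1.43 and -1.28) than in any RC mouse (1.86, 3.31 and -0.72). The score therefore cannot be cleanly told apart from group. Stx17, which joins autophagosomes to lysosomes, stood at 31.2, 30.3 and 29.4 CPM in the RC mice against 26.4, 26.7 and 25.6 in the RN mice, a narrow spread within each group with no overlap and a log2 fold change of -0.21 (adjusted p = 0.442 in edgeR). Vamp3, the VAMP of recycling endosomes, which astrocytes also use, stood at 52.8, 64.8 and 53.7 CPM in the RC mice against 51.9, 54.0 and 45.0 in the RN mice, with overlap and a log2 fold change of -0.18. Stx16, a Golgi syntaxin, stood at 67.5, 63.2 and 57.2 CPM in the RC mice against 75.4, 62.2 and 66.5 in the RN mice and overlapped, and the remaining 9 genes also overlapped.

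Synaptotagmins that trigger fast release differed little. Syt1, the main sensor of forebrain terminals, stood at 799, 716 and 887 CPM in the RC mice against 889, 813 and 869 in the RN mice. Syt2, the sensor of fast relay synapses, stood at 112, 144 and 112 CPM in the RC mice against 94.1, 134 and 127 in the RN mice. Syt9, the third fast sensor, stood at 84.6, 59.6 and 96.7 CPM in the RC mice against 95.2, 87.8 and 61.6 in the RN mice. All 3 overlapped between the groups, and the log2 fold changes were 0.10 (95% interval -0.12 to 0.32), -0.048 (-0.41 to 0.31) and 0.022 (-0.46 to 0.50). The widest of these intervals, that of Syt9, still lay within 1.5-fold in either direction.

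The synaptotagmins with the clearest difference were Syt6 and Syt5, which bind calcium but are not the main triggers of fast release. Syt6 (ENSMUSG00000027849) stood at 30.4, 31.0 and 32.1 CPM in the RC mice against 49.2, 46.0 and 59.9 in the RN mice. The RC mice lay close together and every RN mouse was higher, by a fold change of 1.66 (log2 0.73, standard error 0.116, 95% interval 0.47 to 1.00). It had the smallest p of the members, 0.000209, and an adjusted p of 0.0696 in edgeR's quasi-likelihood test against 5.4e-05 in DESeq2's Wald test. Syt5 (ENSMUSG00000004961), found on dense core vesicles, stood at 87.0, 91.0 and 93.0 CPM in the RC mice against 117, 105 and 135 in the RN mice. Again the groups did not overlap, and the fitted log2 fold change was 0.40 (standard error of 0.105), with an adjusted p of 0.185 in edgeR and 0.0383 in DESeq2. RN replicate 3 was the highest mouse in both genes. The hypothalamic marker sum lay higher in every RN mouse too, at 438, 372 and 312 CPM against 227, 131 and 37.2 CPM in RC. Within each group the orders differed, as that sum was lowest in replicate 3, where both genes were highest. Its part in these differences was not tested.

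Syt7, a slow calcium sensor that sustains asynchronous release and vesicle refilling, had a lower mean in RN. It stood at 218, 178 and 261 CPM in the RC mice against 192, 182 and 161 in the RN mice, with overlap between RC replicate 2 and the RN mice, and its log2 fold change was -0.30 (95% interval -0.62 to 0.032, adjusted p = 0.482 in edgeR). Syt10 stood at 5.94, 2.99 and 5.61 CPM in the RC mice against 5.23, 2.73 and 4.47 in the RN mice, a low level whose interval of -1.01 to 0.55 reached 2-fold. Syt3 overlapped, at a log2 fold change of 0.015.

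Of the 8 remaining synaptotagmins, most of which bind calcium weakly or not at all, 7 had higher means in RN, 1 of them at an unadjusted p under 0.05. That gene, Syt16, stood at 24.7, 23.6 and 27.3 CPM in the RC mice against 32.6, 28.2 and 33.2 in the RN mice, without overlap and with a log2 fold change of 0.31 (adjusted p = 0.325 in edgeR and 0.307 in DESeq2). Syt4, which is induced by activity and sits on peptide vesicles, stood at 217, 114 and 188 CPM in the RC mice against 245, 201 and 238 in the RN mice. RC replicate 2 was far below the others in it, the groups overlapped, and the interval was -0.10 to 0.89. Syt11, an abundant form in neurons and glia, stood at 743, 714 and 726 CPM in the RC mice against 784, 765 and 767 in the RN mice, without overlap and with an unadjusted p of 0.249 in edgeR. Syt15, a rare form, stood at 3.87, 4.12 and 4.12 CPM in the RC mice against 5.12, 4.38 and 6.37 in the RN mice, without overlap and with an unadjusted p of 0.105 in edgeR. Syt12, a vesicle form that binds no calcium, stood at 20.3, 23.0 and 20.1 CPM in the RC mice against 20.0, 17.2 and 23.3 in the RN mice and overlapped.

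Complexins varied widely between mice of a group. Cplx1, the form of fast neurons, stood at 679, 829.6 and 916 CPM in the RC mice against 651, 797 and 742 in the RN mice, with overlap and a log2 fold change of -0.15 (95% interval -0.44 to 0.14). Cplx2, the form of cortex and hippocampus, stood at 251, 491 and 342 CPM in the RC mice against 317, 285 and 552 in the RN mice. It varied nearly as much within RC as within RN, with the highest mouse 1.96 times the lowest in RC and 1.94 times in RN, and its interval of -0.59 to 0.77 held changes of 1.5-fold in either direction. The summed markers of cortical and hippocampal neurons stood at 726, 1417 and 1204 CPM in the RC mice against 863, 830 and 1065 in the RN mice, and like Cplx2 they were highest in replicate 2 of RC and replicate 3 of RN. Cplx3, a form of retina and of sparse cortical neurons, was counted 63, 107 and 146 times in the RC mice against 59, 59 and 48 times in the RN mice. That is 3.53, 6.39 and 8.36 CPM in the RC mice against 3.51, 3.15 and 2.68 in the RN mice, where RC replicate 1 and RN replicate 1 were all but equal although the groups did not overlap in rank. The log2 fold change was -0.97 (95% interval -1.71 to -0.22, unadjusted p = 0.0170 and adjusted p = 0.276 in edgeR).

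The syntaxin-binding proteins lay on both sides of 0. Stxbp5, the release inhibitor tomosyn, stood at 66.6, 49.8 and 53.0 CPM in the RC mice against 77.5, 66.5 and 76.2 in the RN mice. Its RN replicate 2 lay just below RC replicate 1, and the log2 fold change was 0.38 (unadjusted p = 0.0169, adjusted p = 0.276 in edgeR).

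Stxbp3, a form of many tissues known from glucose transporter traffic, stood at 36.5, 36.3 and 28.6 CPM in the RC mice against 25.9, 25.3 and 19.4 in the RN mice, without overlap. Its log2 fold change of -0.52 (standard error 0.153) had an adjusted p of 0.216 in edgeR and 0.0735 in DESeq2. Stxbp4 stood at 32.1, 28.9 and 21.4 CPM in the RC mice against 21.7, 20.9 and 18.7 in the RN mice, where RN replicate 1 lay just above RC replicate 3, with a log2 fold change of -0.43 (adjusted p = 0.344 in edgeR). Once the fit held the choroid plexus score, these log2 fold changes were -0.27 for Stxbp3 and -0.07 for Stxbp4 (unadjusted p = 0.278 and 0.759 in edgeR). As given for Vamp8, that score cannot be cleanly told apart from group. Stxbp2 and Stxbp6 overlapped, and the same fit took their log2 fold changes from -0.22 to 0.57 and from -0.18 to -0.64.

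**Figure D3:**
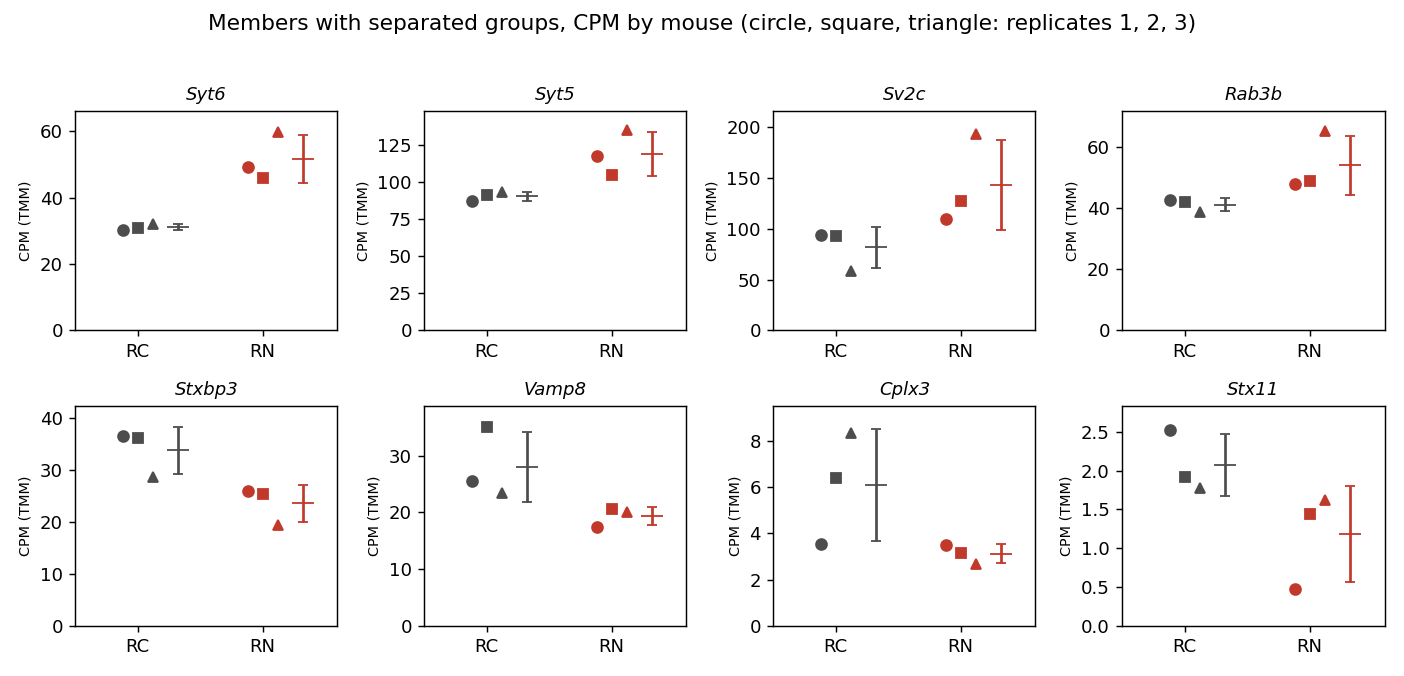
CPM in each mouse for 8 of the 17 members whose groups do not overlap, each panel from 0, with the group mean and SD beside the points (n = 3 mice each). The upper row is higher and the lower row lower in RN, and none passed the adjusted threshold in edgeR.

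RIM proteins, which tie vesicles to calcium channels, all had lower means in RN and all overlapped. Rims1 stood at 72.5, 70.8 and 84.6 CPM in the RC mice against 77.4, 62.3 and 65.4 in the RN mice, with a log2 fold change of -0.15 (95% interval -0.42 to 0.11). Rims2 stood at 79.2, 63.2 and 99.1 CPM in the RC mice against 75.9, 65.7 and 68.9 in the RN mice, with a log2 fold change of -0.20 (95% interval -0.56 to 0.16). RC replicate 3 was the highest mouse in both, as it was for the thalamic marker sum, whose part in these values was not tested. These estimates and those of Rims3 and Syt7 lay further from 0 when a marker score entered the fit. With the choroid plexus score the log2 fold change was -0.65 for Rims2, -0.79 for Rims3 and -0.69 for Syt7 (unadjusted p = 0.0018, 0.0014 and 0.0015, adjusted p = 0.205, 0.193 and 0.196 in edgeR). With the pan-neuronal score it was -0.39, -0.44 and -0.45 (unadjusted p = 0.0044, 0.0076 and 0.0038, adjusted p = 0.179, 0.219 and 0.174 in edgeR). Under the choroid plexus score, Rims2, Rims3 and Syt7 had the smallest unadjusted p of the tested members, so they are a selected set. Rims1 shifted less, to -0.37 and -0.25 with the choroid plexus and pan-neuronal scores (unadjusted p = 0.054 and 0.066 in edgeR). Rims4 gave -0.33 and -0.16 (unadjusted p = 0.048 and 0.14 in edgeR). None of these genes passed the adjusted threshold under either score. As given for Vamp8, the choroid plexus score cannot be cleanly told apart from group. Of the RAB3 proteins, the vesicle GTPases that RIM binds, Rab3a stood at 437, 499 and 546 CPM in the RC mice against 520.0, 499.6 and 481 in the RN mice, with a log2 fold change of 0.018 (95% interval -0.20 to 0.24). Rab3b, known in pituitary and in scattered neurons, stood at 42.5, 42.0 and 38.7 CPM in the RC mice against 47.7, 48.9 and 65.1 in the RN mice. It was higher in all RN mice, with RN replicate 3 furthest and a fitted difference of 0.39 on the log2 scale (standard error 0.132, adjusted p = 0.277 in edgeR). The pituitary marker sum was lowest in replicate 3 of both groups, and its part in the Rab3b difference was not tested. Rab3c stood at 598, 344 and 608 CPM in the RC mice against 542, 438 and 394 in the RN mice, with overlap. Rab3d, a form of secretory glands, stood at 10.4, 12.3 and 9.22 CPM in the RC mice against 10.6, 14.7 and 9.28 in the RN mice, also with overlap.

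Most vesicle membrane proteins differed little between RN and RC, and Sv2c was the exception. Syn1, the most studied synapsin, stood at 355, 386 and 444 CPM in the RC mice against 428, 418 and 385 in the RN mice, with a log2 fold change of 0.055 (95% interval -0.18 to 0.29). Syn2 stood at 420.5, 426 and 429 CPM in the RC mice against 473, 417 and 441 in the RN mice, with a log2 fold change of 0.061 (95% interval -0.12 to 0.24). Both overlapped between the groups. Syn3, the synapsin of immature neurons, stood at 7.96, 4.96 and 6.24 CPM in the RC mice against 9.10, 7.75 and 9.79 in the RN mice. Its RN replicate 2 lay just below RC replicate 1, with a log2 fold change of 0.47 (unadjusted p = 0.0541, adjusted p = 0.435 in edgeR). Synapsin values thus overlapped in all 3 genes, and the interval of the rare Syn3 was the widest.

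The SV2 proteins are vesicle glycoproteins that receive botulinum toxin. Sv2a, the form of nearly all synapses, stood at 606, 558 and 585 CPM in the RC mice against 648, 662 and 635 in the RN mice, higher in all RN mice by a log2 fold change of 0.15 (95% interval -0.015 to 0.32, adjusted p = 0.478 in edgeR). Sv2b stood at 142, 177 and 161 CPM in the RC mice against 165, 174 and 142 in the RN mice and overlapped. Sv2c (ENSMUSG00000051111), a form of the basal ganglia and of scattered forebrain and midbrain neurons, stood at 94.4, 92.6 and 58.6 CPM in the RC mice against 109, 128 and 194 in the RN mice. Every RN mouse lay above RC, RC replicate 3 was lowest and RN replicate 3 highest, and the fold change was 1.75 (log2 0.81, standard error 0.245, 95% interval 0.25 to 1.37). The adjusted p was 0.227 in edgeR and 0.0187 in DESeq2. Leaving out a mouse at a time gave log2 fold changes between 0.53 and 0.97. A fit that held the choroid plexus score, which cannot be cleanly told apart from group, gave 1.42. The hypothalamic marker sum, given beside Syt6, was likewise higher in every RN mouse and lowest in RC replicate 3. Within RN the orders differed, as that sum was lowest in RN replicate 3, where Sv2c was highest. Pmch was its largest part, at 240, 155 and 102 CPM in RN replicates 1, 2 and 3. With Pmch, Hcrt, Avp, Agrp, Otp, Sim1, Nr5a1 and Fezf1 were lowest in RN replicate 3. Oxt, Trh and Crh were highest in it, and Nkx2-1 lay between. The part of that sum in the Sv2c difference was not tested.

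Synaptogyrins, small vesicle proteins of uncertain role, overlapped in Syngr1, at 483, 427 and 474 CPM in the RC mice against 482, 507 and 492 in the RN mice. They did not overlap in Syngr3, at 162, 138 and 166 CPM in the RC mice against 173, 166 and 186 in the RN mice, where RN replicate 2 only just exceeded RC replicate 3 and the log2 fold change was 0.18 (adjusted p = 0.562 in edgeR). Snap91 is not a SNARE but AP180, the clathrin adaptor that retrieves vesicle membrane. It stood at 297, 274 and 299.9 CPM in the RC mice against 337, 331 and 298 in the RN mice, with overlap and a log2 fold change of 0.15 (95% interval -0.046 to 0.34).

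The use of one family member against another was compared within each mouse as the log2 ratio of their counts, which needs no scaling between libraries. Of the 10 pairs given here, 9 overlapped between the groups. Vamp1 over Vamp2 was -1.16, -1.08 and -1.20 in RC and -1.26, -0.88 and -1.28 in RN, and Syt2 over Syt1 was -2.84, -2.31 and -2.99 in RC and -3.24, -2.60 and -2.77 in RN. These ratios set the fast relay forms against the forebrain forms, and they differed between groups by 0.0084 and -0.16 (exact two-sided permutation tests, p = 1 and p = 0.6). Sv2c over Sv2a was -2.68, -2.59 and -3.32 in RC and -2.57, -2.37 and -1.71 in RN. All RN mice lay above RC, by a mean of 0.65, and of the 10 pairs this was the exception to the overlap (exact permutation test, p = 0.1, the smallest that 3 against 3 allow, and 0.55 when adjusted over the 11 pairs compared). With 3 mice a group, no pair could have passed 0.05.

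**Figure D4:**
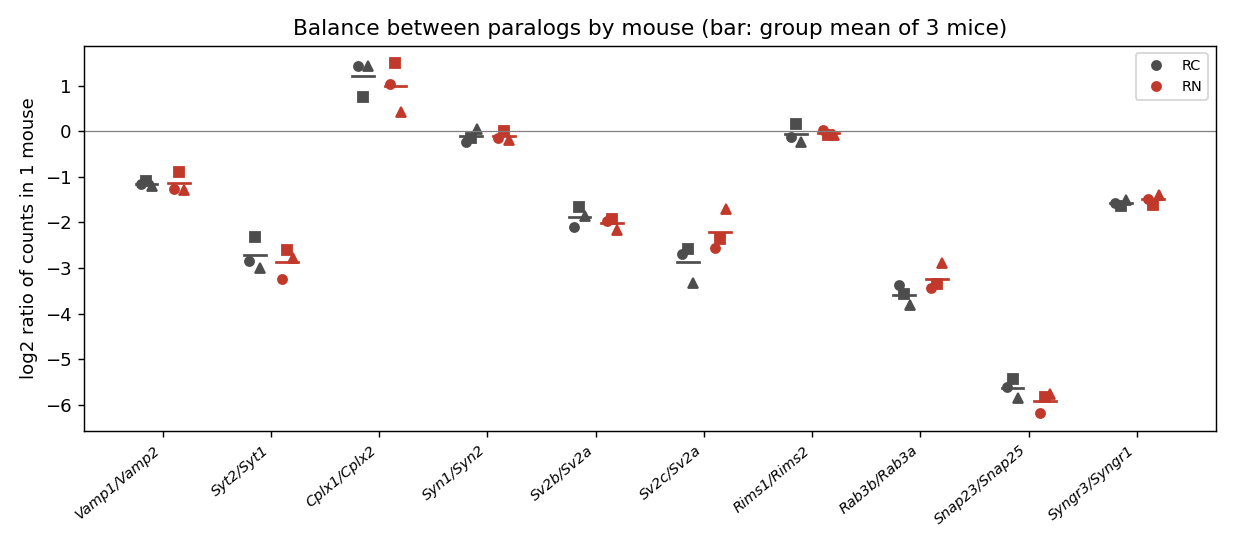
Log2 ratio of the counts of related genes within each mouse, for 10 pairs, with circle, square and triangle for replicates 1, 2 and 3 and a bar at the group mean. Groups are apart in Sv2c/Sv2a, higher in RN, and overlap in the other 9 pairs.

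The order of transcript levels was compared per length, as CPM per kilobase of exon (merged exons of GENCODE M21). Cplx1 was highest, at 369 ± 54.8 in RC and 334 ± 33.6 in RN (SD, n = 3). Rab3a followed at 222 ± 24.5 and 225 ± 8.73, and Vamp2 at 214 ± 23.9 and 211 ± 8.40, and these 2 did not differ beyond their spread. Among the next were Snap25, at 152 ± 25.6 in RC and 156 ± 13.8 in RN, and Snap47, a SNAP protein spread over inner membranes, at 147 ± 10.1 and 155 ± 0.687, again neighbours within each other's spread. The same 15 genes held the first 15 places in RC and in RN. Of the 67 members, 41 had a mean above 10 CPM per kilobase in RC. Lengths come from a fixed gene model, so a change of isoform would not show.

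Among mice of a group, the places of the members were spread less evenly than those of all tested genes. RC replicate 3 was the highest RC mouse in 33 of the 67 members (49.3%) against 30.5% of all tested genes, and RC replicate 2 the lowest in 27 (40.3%) against 32.1%. In RN, replicate 1 was highest in 32 (47.8%) against 34.4%, and replicate 3 lowest in 29 (43.3%) against 31.9%. The thalamic marker sum had the same order at these places. It stood at 1118, 867 and 1797 CPM in RC and at 1161, 972 and 640.0 CPM in RN. The pan-neuronal marker sum was likewise highest in RC replicate 3 and lowest in RC replicate 2, at 7750.2, 7608 and 9037 CPM in RC. In RN that sum was nearly level, at 8715, 8781 and 8752 CPM. Syt7, Rab3c and Syt9, whose values are above, were highest in RC replicate 3 and, within their groups, lowest in RC replicate 2 and RN replicate 3. Of the 11 members whose RN mice all lay above RC, 7 were highest in RN replicate 3, where the thalamic sum was lowest, Syt6, Sv2c and Rab3b among them. Of the other 4, 2 were highest in RN replicate 1 and 2 in RN replicate 2. This split was not taken over all genes whose RN mice all lay above RC. RN replicate 3 was the highest RN mouse in 18 of the 67 members (26.9%) and in 32.6% of all tested genes. The part of these marker differences in the members' values was not tested.

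**Figure D5:**
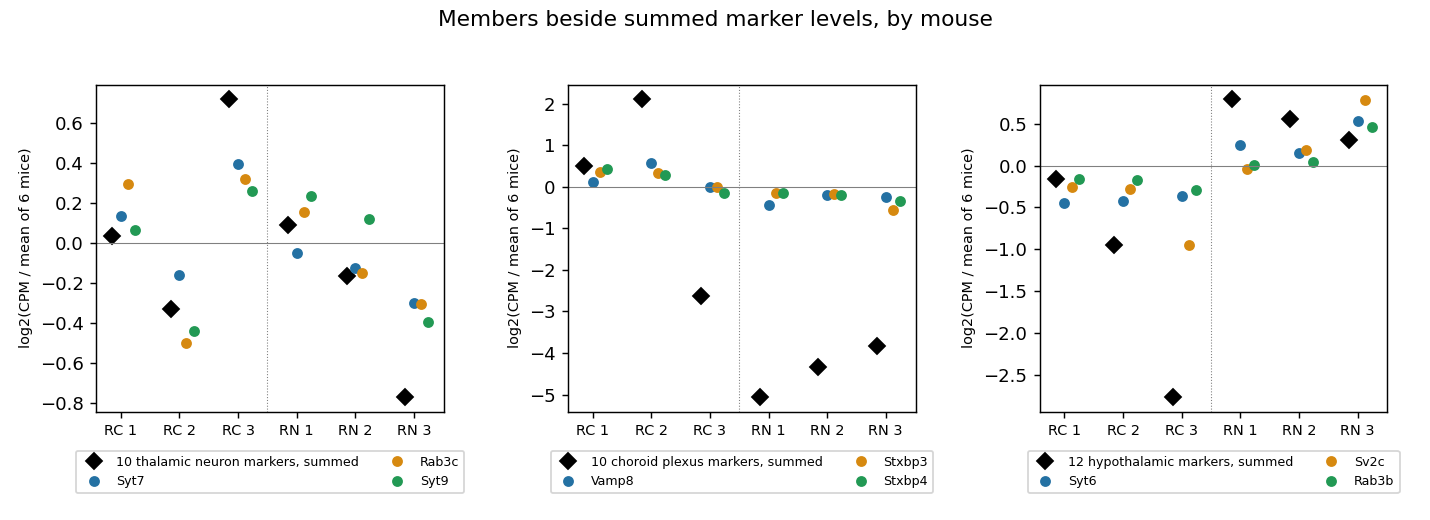
Log2 of CPM over the mean of the 6 mice, for members and for the summed markers of thalamic neurons, choroid plexus and hypothalamic neurons in the same mouse. The genes shown were picked after their values were seen, to set each beside a marker sum: choroid plexus markers are lower in every RN mouse and hypothalamic markers higher. Within RN the hypothalamic sum is lowest in replicate 3, where Syt6, Sv2c and Rab3b are highest.

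Other genes of the release pathway were also counted. Of 54 further presynaptic genes, all tested, 5 were higher and 0 lower at an unadjusted p under 0.05 in edgeR, where 5.44% of all tested genes were higher and 6.33% lower. None passed the adjusted p in edgeR, and the median log2 fold change was 0.049. DESeq2 gave 1 of them, Sytl4, an adjusted p under 0.05. Sytl4, granuphilin, which docks peptide and hormone granules, stood at 10.4, 9.26 and 4.81 CPM in the RC mice against 21.9, 19.9 and 22.0 in the RN mice. No RN mouse overlapped RC, with a fold change of 2.61 (log2 1.38, standard error 0.258, adjusted p = 0.0986 in edgeR and 3.38e-05 in DESeq2). Doc2a, a sensor of spontaneous release, stood at 12.5, 12.2 and 10.0 CPM in the RC mice against 18.3, 17.6 and 14.9 in the RN mice, and Rimbp2, which links RIM to calcium channels, at 48.3, 45.6 and 48.8 CPM in the RC mice against 56.6, 52.5 and 62.0 in the RN mice. Neither overlapped, at log2 fold changes of 0.55 and 0.26 (adjusted p = 0.197 and 0.309 in edgeR).

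The lower genes of that list with the smallest p were the priming factors Unc13c and Unc13b and the membrane-bending Bin1. Unc13c stood at 79.3, 81.6 and 101 CPM in the RC mice against 71.7, 56.0 and 79.1 in the RN mice, without overlap by a narrow margin, and had a log2 fold change of -0.34 (unadjusted p = 0.0501, adjusted p = 0.425 in edgeR). Unc13b and Bin1 overlapped, at log2 fold changes of -0.24 and -0.14.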

How the data were processed

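Thalamus RNA of 3 RC and 3 RN mice was sequenced on an Illumina NovaSeq sequencer. The authors deposited whole-number counts of reads per gene, 1 column per sample and no normalization. The submitters' processing notes name fastp 0.18.0, FastQC, HISAT2 2.2.4, RSEM 1.2.19 and build GRCm39, without roles. RSEM estimates counts and can share reads between related genes, so counts of close relatives carry that uncertainty. The use of strand is not given in the sources used here. The table also has 0 sample columns that could not be mapped.

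Genes of low count were removed with filterByExpr (minimum count 10) in edgeR 4.0.16 (R 4.3.3), counts were scaled by TMM, and a quasi-likelihood model of group alone was fitted. P-values were adjusted over 14956 genes by Benjamini-Hochberg, a call needed both 0.05 after adjustment and 2-fold, and 95% intervals come from the same fit. The biological coefficient of variation was 17.4%. The study's methods name DESeq2, and its Wald test (version 1.42.0) was an alternative. The other alternatives were DESeq2 size factors, no filter, at least 10 counts in every mouse, no fold threshold, a replicate block, choroid plexus or pan-neuronal marker scores as covariates, and each mouse left out. DESeq2 and the replicate block without a fold threshold were added after seeing the data. Scripts were tested on simulated data. A count of 0 allows up to 3 counts, or 0.160 to 0.179 CPM, as a limit from counting alone, because amplified reads were not traced to single molecules.

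A chi-square over genes, divided by its degrees of freedom, was 16.3 to 44.3 for each pair of libraries, where counting noise gives about 1, and each library was kept as a replicate. The labels number the replicates without stating that each is a separate mouse. They are called mice here, and p-values measure only the spread between these samples. RC and RN share replicate numbers. Same-numbered samples deviated together from their group means across genes, with correlations of 0.173, 0.120 and 0.209. RC replicate 1 and RN replicate 2 gave 0.156, and over the members alone the same-numbered values were 0.066, 0.28 and -0.27. The block on this pairing changed no call.

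The members and lists were chosen with earlier results of these data known. Genes named with values are a fixed core of 26 members, up to 2 higher and 2 lower members of each role with the smallest p, untested members, up to 3 higher and 3 lower genes of the presynaptic list, and Neurod1. Syt3, Syt11, Syt15, Stx2, Stx4a, Stxbp2, Stxbp6, Rims3, Rims4, Snap47 and members named without values were named after their values were seen. Exon lengths came from GENCODE M21 and start regions from RefSeq, both on GRCm38 and not the build of the counts, so they serve as gene models only. Results of 2 members are not reported here by name, and counts over all members include them.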

Additional observations from a re-analysis of the deposited data

How the results depend on the processing

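The replicate block, DESeq2 size factors, both other filters, no fold threshold and each omitted mouse left 0 members called in either direction by edgeR, as did both marker scores as covariates. With the replicate block the smallest adjusted p among the members was 0.0846 (Syt6, log2 fold change 0.72). DESeq2 without a fold threshold, chosen after seeing the data, gave 3 higher members. The 7 higher members at an unadjusted p under 0.05 became 4 with the pan-neuronal score, 4 without RC replicate 2, RC replicate 3 or RN replicate 1, 3 without RN replicate 3 and 9 without RC replicate 1. The 4 lower ones became 8 with the choroid plexus score and 8 without RC replicate 2, and 2 without RN replicate 3. The 11 members above without overlap became 12 to 17 (17 without RC replicate 1 or RN replicate 2), and the 6 below became 8 to 13 (13 without RC replicate 2, 10 without RC replicate 3), since fewer mice overlap less. The median log2 fold change became -0.011 with the choroid plexus score, -0.018 with the pan-neuronal score and -0.034 to 0.042 with a mouse left out, so its sign is not set. Small log2 fold changes also crossed 0. With the choroid plexus score Syt1 was -0.12, Syt2 0.23, Syt4 -0.011, Snap25 -0.31, Rab3a -0.11, Syn1 -0.12, Syt9 -0.48 and Syt12 0.073. With the pan-neuronal score Syt1 was -0.0020, Syt2 0.082, Snap25 -0.10, Rab3a -0.036, Syn1 -0.018 and Syt9 -0.16. Vamp1 was 0.00090 with DESeq2 and 0.00087 with its size factors, and Stx3 was -0.00041 without a filter and -0.00055 with at least 10 counts in every mouse. With a mouse left out, ranges of members named here that crossed 0 were -0.055 to 0.12 for Syt3, -0.18 to 0.0029 for Stx2, -0.14 to 0.0058 for Stx4a, -0.43 to 0.079 for Stxbp2, -0.41 to 0.0034 for Rims3, -0.15 to 0.093 for Syt2, -0.056 to 0.18 for Snap25, -0.11 to 0.067 for Vamp1, -0.087 to 0.073 for Vamp2, -0.26 to 0.37 for Cplx2, -0.063 to 0.096 for Rab3a, -0.017 to 0.15 for Syn1, -0.079 to 0.081 for Sv2b, -0.15 to 0.19 for Syt9, -0.18 to 0.029 for Syt12, -0.090 to 0.14 for Stx3 and -0.10 to 0.25 for Rab3d. Pair ratios that crossed 0 were Vamp1/Vamp2 (-0.12 to 0.077), Syt2/Syt1 (-0.30 to 0.042), Cplx1/Cplx2 (-0.47 to 0.057), Syn1/Syn2 (-0.067 to 0.081) and Rims1/Rims2 (-0.059 to 0.14). The cause of these shifts was not tested. With 3 mice a group, a difference whose 95% interval holds 0 could not be shown.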
